A study of Mus musculus with 6 samples.

Results

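A set of 10 genes of Toll-like receptor signaling was followed in irradiated mouse cortex: *Tlr2*, *Tlr3*, *Tlr4*, *Tlr7*, *Tlr9*, *Myd88*, *Ticam1*, *Irak4*, *Unc93b1* and *Cd14*. They were chosen by gene name and are 10 of the 51826 genes in the count table. All 10 had enough reads to be among the 18345 genes tested. *Tlr3*, *Tlr7* and *Tlr9* encode receptors of endosomes, whereas *Tlr2*, *Tlr4* and *Cd14* encode proteins of the cell surface, so the genes do not all belong to the endosomal arm.

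The study asked what loss of asparagine endopeptidase (AEP, also called legumain), a lysosomal cysteine protease encoded by *Lgmn*, changes in the brain after radiation. RNA of 3 *Lgmn*-/- and 3 *Lgmn*+/+ cortical samples from male BALB/c mice, 6 to 8 weeks old, was sequenced as polyA RNA 3 days after the whole brain had received 10 Gy of X-rays in 1 dose. All mice of both groups were irradiated, so the comparison of knockout (*Lgmn*-/--IR) with wild-type (*Lgmn*+/+-IR) cortex is of genotype after radiation, and no non-irradiated cortex was analysed here. The *Lgmn*-/- animals carry floxed *Lgmn* on both chromosomes together with a Cre transgene, and the line came from a single embryonic stem cell clone. The promoter of the Cre transgene is not given in the sources used here. The labels do not say that replicates are separate mice, and p-values then measure the spread between these samples only.

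Toll-like receptors sense molecules of microbes and of damaged cells. TLR3 binds double-stranded RNA, TLR7 single-stranded RNA and TLR9 unmethylated CpG DNA, all inside endosomes, where lysosomal proteases, AEP among them, trim the receptors. UNC93B1 carries these receptors from the endoplasmic reticulum to endosomes. TLR2 and TLR4 sense bacterial lipoproteins and lipopolysaccharide at the surface, with CD14 as co-receptor. Most of the receptors signal through the adaptor MyD88 and the kinase IRAK4, TLR3 signals through the adaptor TRIF (encoded by *Ticam1*), and TLR4 uses both adaptors. In brain, microglia express most of these genes, and astrocytes also express *Tlr3*.

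Total counts per library ranged from 41874462 to 46829441. *Lgmn* itself had 5558, 5528 and 5775 counts in wild-type cortex and 3703, 3269 and 4109 in knockout cortex. Every knockout library was lower, with a log2 fold change of -0.64 ± 0.12 (SE, adjusted p = 0.0315, edgeR quasi-likelihood test with Benjamini-Hochberg adjustment). It did not pass without wild-type replicate 1 (adjusted p = 0.103), 2 (0.131) or 3 (0.104), nor without knockout replicate 1 (0.0949). The deposited count is for the gene as a whole, so the deleted part cannot be seen on its own. Among all genes, 611 had an adjusted p under 0.05, which is 3.33% of those tested, with 303 higher and 308 lower in the knockout. Markers of other cells also moved with genotype. All 5 red blood cell markers were higher (summed level 7.59 to 15.8 CPM, counts scaled by library size, in wild-type cortex and 234 to 2273 CPM in knockout cortex), and 5 of 6 oligodendrocyte markers were lower (3402 to 4124 against 2243 to 2408 CPM). The part of these cells in the results that follow was not tested.

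Of the 10 genes, only *Tlr3* passed the test, and it rose in knockout cortex. This is 1 of 10 genes, with 3.33% called among all genes tested, 1.65% called higher, and 2.06% called with an absolute log2 fold change over 1, as *Tlr3* was. In CPM, the 3 libraries of one genotype lay wholly above or below those of the other for *Tlr3*, *Ticam1* and *Cd14*, 3 of 10 genes, where 25.7% of all tested genes did so. The same 3 genes had an unadjusted p under 0.05 in edgeR's quasi-likelihood test, against 18.6% of all tested genes. The median log2 fold change of the 10 genes was -0.10, beside -0.01 for all genes tested. In these bulk samples, fewer cells of a type and less RNA per cell cannot be told apart.

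**Figure D1:**
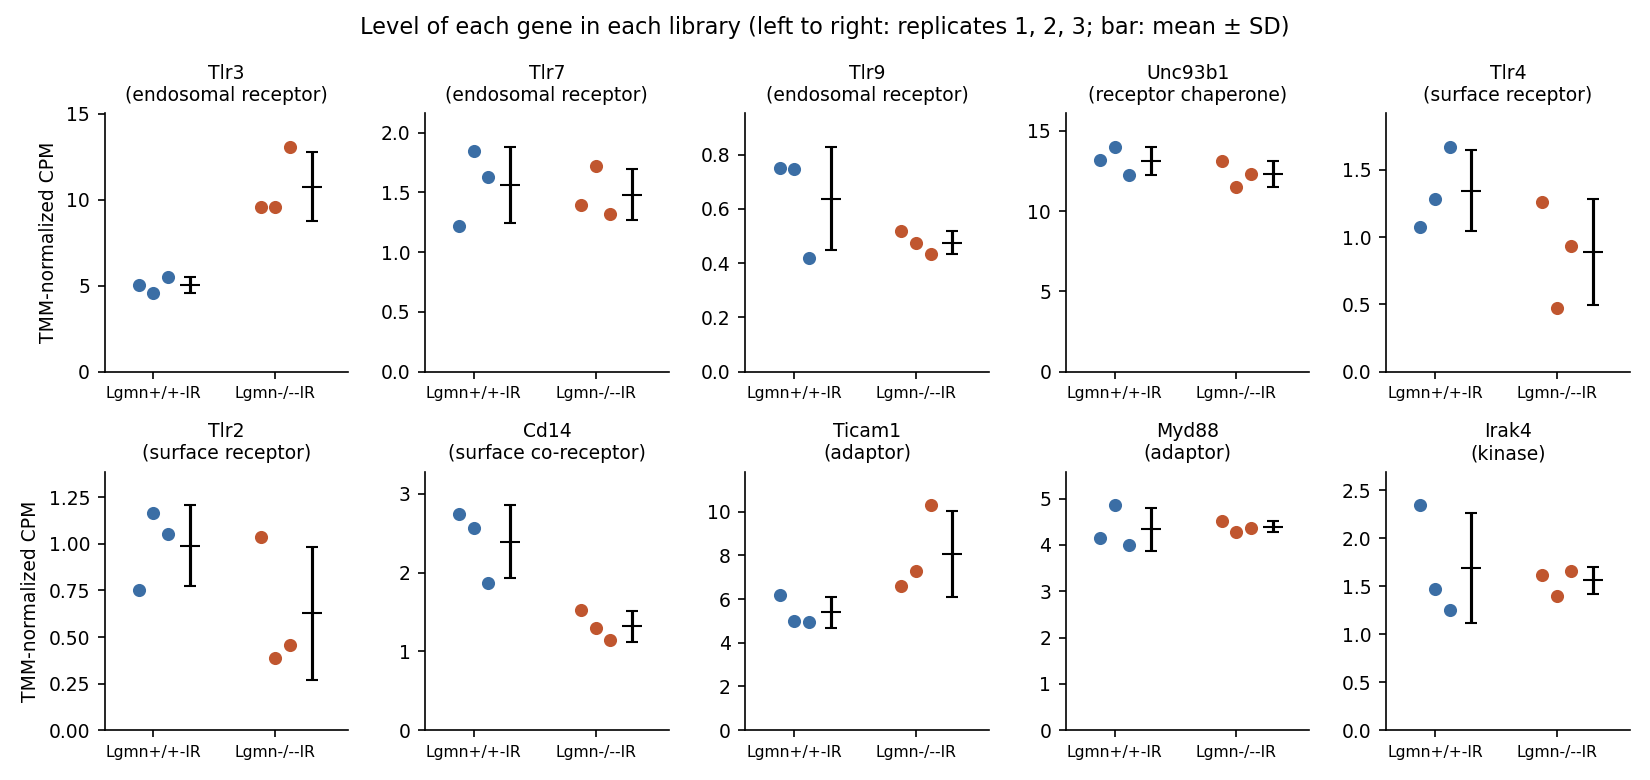
Level of each of the 10 genes in each library, in TMM-normalized CPM on linear axes from 0. Points are libraries (replicates 1, 2 and 3 from left to right; blue, wild-type; orange, knockout), and bars are the mean ± SD over 3 libraries. The groups are apart for *Tlr3* (4.58 to 5.52 against 9.59 to 13.1 CPM), *Cd14* and *Ticam1*, and overlap in the other 7 panels.

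*Tlr3* (ENSMUSG00000031639, chr8:45395665-45411080, minus strand, GRCm38) had 216, 196 and 251 counts in wild-type cortex and 426, 445 and 574 in knockout cortex. All 3 knockout libraries lay above all 3 of the other genotype, with replicate 3 the highest. The mean level was 5.05 ± 0.471 CPM (SD, n = 3) in wild-type cortex and 10.8 ± 2.02 CPM in knockout cortex, a 2.13-fold difference (95% interval 1.61 to 2.81; log2 fold change 1.09 ± 0.17 SE; adjusted p = 0.0195, edgeR). The difference did not pass without wild-type replicate 1 (adjusted p = 0.0666), replicate 2 (0.101) or replicate 3 (0.0629). It also did not pass on the deposited FPKM (fragments scaled by transcript length and library size), where it was 0.49 on the log2(FPKM + 1) scale (limma adjusted p = 0.222), 0.68 with + 0.1 and 0.71 with + 0.01. A larger number added to the FPKM compresses the difference of low genes, but *Tlr3* also did not pass with + 0.01 (limma adjusted p = 0.225).

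The FPKM of *Tlr3* were 1.69, 1.43 and 2.65 in wild-type cortex and 2.98, 2.63 and 3.59 in knockout cortex, so that wild-type replicate 3 reached the lowest knockout library. The transcript length implied by the counts and the FPKM of *Tlr3* ran from 2082 to 3757 bases between libraries, a 1.80-fold range, the widest of the 10 genes. For *Cd14* and *Ticam1* this range was 1.01-fold. The antisense gene *Gm45542*, which overlaps *Tlr3*, had 2 counts in wild-type replicate 1 and 0 in the other libraries. Of the 5436 stretches of 50 bases in *Tlr3* exons, 5.30% also occurred in this gene and in no other.

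The other endosomal receptors did not pass the test. *Tlr7* (ENSMUSG00000044583, chrX:167304929-167330558) had 52, 79 and 74 counts in wild-type cortex and 62, 80 and 58 in knockout cortex. In CPM the knockout libraries lay within the wild-type range, whereas in FPKM knockout replicate 2 lay above it, with a level of 1.56 ± 0.318 CPM in wild-type and 1.48 ± 0.214 CPM in knockout cortex (SD, n = 3). The log2 fold change was -0.08 with a 95% interval of -0.65 to 0.49 (edgeR adjusted p = 0.888). *Tlr9* (ENSMUSG00000045322, chr9:106222598-106226883) was the least abundant of the genes by counts, with 32, 32 and 19 in wild-type cortex and 23, 22 and 19 in knockout cortex. Here wild-type replicate 3 lay below every knockout library in CPM, and the log2 fold change was -0.42 (-1.20 to 0.35, adjusted p = 0.537, edgeR). At these counts the interval for *Tlr9* includes both a fall and a rise, and the value was -0.65 without wild-type replicate 3.

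*Unc93b1* (ENSMUSG00000036908, chr19:3935186-3949340), which encodes the carrier shared by TLR3, TLR7 and TLR9, was measured most precisely. It had 563, 598 and 556 counts in wild-type cortex and 582, 533 and 540 in knockout cortex. The mean level was 13.1 ± 0.872 against 12.3 ± 0.810 CPM (SD, n = 3). The log2 fold change was -0.09, with a 95% interval of -0.36 to 0.17 (edgeR adjusted p = 0.702), and the groups overlapped.

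**Figure D2:**
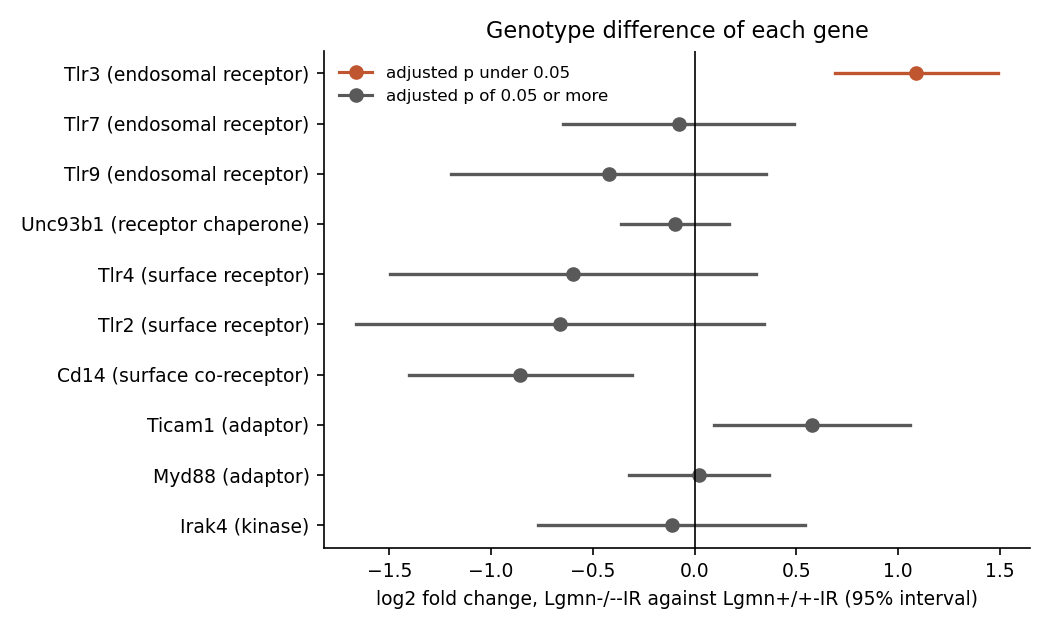
Log2 fold change of each gene, knockout cortex against wild-type cortex, with its 95% interval from edgeR; the vertical line marks no difference. *Tlr3* (1.09) is the only gene with an adjusted p under 0.05, and the intervals of *Cd14* and *Ticam1* also leave out 0 before adjustment.

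The surface receptors were read at low depth. *Tlr4* (ENSMUSG00000039005, chr4:66827584-66930284) had 46, 55 and 76 counts in wild-type cortex and 56, 22 and 41 in knockout cortex. *Tlr2* (ENSMUSG00000027995, chr3:83836272-83841767) had 32, 50 and 48 counts and then 46, 18 and 20. For both genes knockout replicate 1 lay among the wild-type libraries, and the other knockout libraries lay below them. The log2 fold change was -0.60 (-1.50 to 0.30, adjusted p = 0.454) for *Tlr4* and -0.66 (-1.66 to 0.34, adjusted p = 0.458) for *Tlr2* by edgeR. Both intervals are wide and include no difference. With 1 library left out, *Tlr4* ran from -0.29 (without knockout replicate 2) to -0.93 (without knockout replicate 1), and *Tlr2* from -0.41 to -1.23 (without the same libraries).

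*Cd14* (ENSMUSG00000051439, chr18:36725067-36726798) had 117, 110 and 85 counts in wild-type cortex and 68, 60 and 50 in knockout cortex, and every knockout library was below every other library in both CPM and FPKM. The mean level was 2.39 ± 0.462 CPM (SD, n = 3) against 1.32 ± 0.197 CPM. The log2 fold change was -0.86 (-1.41 to -0.31), a mean 1.81-fold lower, and it did not pass the test across all genes (unadjusted p = 0.00770, adjusted p = 0.112, edgeR). DESeq2 gave an adjusted p of 0.0469.

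*Ticam1*, the adaptor gene of TLR3, had 265, 215 and 226 counts in wild-type cortex and 293, 338 and 452 in knockout cortex. All knockout libraries were above the others, with replicate 3 the highest, as for *Tlr3*. The mean level was 5.40 ± 0.702 against 8.06 ± 1.97 CPM (SD, n = 3), with a log2 fold change of 0.58 (0.10 to 1.06) that did not pass (unadjusted p = 0.0247, adjusted p = 0.197, edgeR). Without knockout replicate 3 it was 0.36. *Myd88*, the adaptor gene of the other receptors, had 177, 208 and 182 counts and then 201, 199 and 192. Its means were 4.34 ± 0.458 and 4.40 ± 0.120 CPM. The log2 fold change was 0.02, with a 95% interval of -0.32 to 0.36 (edgeR adjusted p = 0.956). Within libraries, the ratio of *Ticam1* to *Myd88* CPM was 1.50, 1.03 and 1.24 in wild-type cortex and 1.46, 1.70 and 2.35 in knockout cortex, and the groups overlapped. *Myd88* overlaps *Acaa1a* in the genome, and 7.42% of its stretches of 50 bases are shared with that gene, so a part of its reads is uncertain.

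The DNA upstream of both adaptor genes is shown because these genes serve the different receptor arms. *Ticam1* (ENSMUSG00000047123) lies at chr17:56269319-56276786 and *Myd88* (ENSMUSG00000032508) at chr9:119335934-119341411, both on the minus strand. The windows run from 250 to 31 bases before the RefSeq start (GRCm38.p6), at chr17:56276798-56277017 and chr9:119340049-119340268, and are written 5′ to 3′ on the gene's strand. Capitals mark a match to the interferon-stimulated response element, spelled GAAA, any 2 bases, GAAA.
*Ticam1*: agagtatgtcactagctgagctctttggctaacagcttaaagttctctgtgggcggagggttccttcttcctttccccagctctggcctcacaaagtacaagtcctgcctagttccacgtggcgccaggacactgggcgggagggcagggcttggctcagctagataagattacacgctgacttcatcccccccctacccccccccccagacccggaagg
*Myd88*: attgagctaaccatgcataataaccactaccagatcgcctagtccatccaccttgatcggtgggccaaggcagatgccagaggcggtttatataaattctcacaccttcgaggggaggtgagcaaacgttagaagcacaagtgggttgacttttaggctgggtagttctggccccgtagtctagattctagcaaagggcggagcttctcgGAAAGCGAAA
The *Myd88* window holds this element once, from 40 to 31 bases before the start, and the *Ticam1* window does not hold it. The *Myd88* window lies within the span of the GENCODE gene but outside its exons. The element was found on either strand in 2.63% of 32851 promoter windows of the same length. Neither window holds the PU.1 motif GAGGAAGT (2.04% of windows) or the NF-kB motif spelled GGGA, any base, TTTCC (0.335%). The *Ticam1* window has 58.2% G and C and 6 CpG, the *Myd88* window 50% and 9, beside medians of 51.8% and 5 over all windows. Promoters of 6 of the 10 genes were matched in the RefSeq table. Among the others, the *Tlr3* window holds the NF-kB motif once, from 211 to 202 bases before the start. Of the 220 bases of this window, 178 lie in exons of *Tlr3* or *Gm45542*, so it is not shown. The windows of *Tlr2*, *Tlr9* and *Irak4* hold none of these motifs. A match is a run of letters, not a bound site.

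*Irak4* (ENSMUSG00000059883, chr15:94543643-94581815), the kinase gene, had 100, 63 and 57 counts in wild-type cortex and 72, 65 and 73 in knockout cortex. Replicate 1 of wild-type cortex stood above the other libraries, which overlapped. The log2 fold change was -0.11, with a 95% interval of -0.77 to 0.54 (edgeR adjusted p = 0.860). *Irak4* overlaps *Twf1* in the genome, and 5.11% of its stretches of 50 bases occur in *Twf1* or *Gm4887*. The transcript length implied by its counts and FPKM had a 1.38-fold range between libraries, so a part of its reads is uncertain.

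Levels between genes were compared on FPKM, which is scaled by length. *Unc93b1* had the highest mean over the 6 libraries (5.45 FPKM) and was the only gene whose range did not meet that of the next one. *Tlr3* (2.50 FPKM), *Myd88* (1.98) and *Ticam1* (1.96) followed with overlapping ranges. The order of these 3 differed between genotypes, with means of 1.92, 1.96 and 1.61 FPKM in wild-type cortex and 3.07, 1.99 and 2.32 FPKM in knockout cortex. *Cd14* (1.04), *Irak4* (0.529) and *Tlr7* (0.388) came next. *Tlr4* (0.241), *Tlr2* (0.234) and *Tlr9* (0.137) were lowest, and *Tlr4* exceeded *Tlr2* in 3 of 6 libraries. Below *Unc93b1* the ranges of neighbours in this order overlapped, although *Ticam1* exceeded *Cd14*, *Cd14* exceeded *Irak4*, and *Tlr7* exceeded *Tlr4* in 6 of 6 libraries.

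*Tlr3* made up most of the FPKM of the endosomal receptors in every library. Its share of the sum of *Tlr3*, *Tlr7* and *Tlr9* was 78.4%, 69.5% and 84.8% in wild-type cortex and 86.5%, 79.3% and 89.2% in knockout cortex. The ratio of this sum to the sum of *Tlr2* and *Tlr4* was 4.77, 3.21 and 4.70 in wild-type cortex and 6.06, 15.4 and 13.01 in knockout cortex. All knockout libraries had the higher ratio, and replicates 2 and 3, which had the fewest *Tlr2* and *Tlr4* reads, were far above replicate 1. The ratio of *Tlr3* to *Tlr7* CPM was 2.48 to 4.15 in wild-type cortex and 5.56 to 9.90 in knockout cortex. *Tlr3* enters both ratios and makes up most of the endosomal sum. The ratios therefore largely follow *Tlr3*, add no support to its difference and do not show a rise shared by *Tlr7* and *Tlr9*. These ratios were not tested.

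Microglial markers were read beside these genes. The summed level of 20 microglial markers was 436 to 474 CPM in wild-type cortex and 373 to 411 CPM in knockout cortex, without overlap. Of the 20 markers, 6 lay wholly below in knockout cortex, where 13.3% of all tested genes did. None lay wholly above, where 12.4% of all tested genes did, and the median log2 fold change was -0.18. The direction was not shared by all, since *Sall1* (0.35), *P2ry13* (0.19) and *Aif1* (0.46) had values above 0 that did not pass. Of the 20, 1 was called, where 3.33% of all genes were: only *Laptm5*, a lysosomal membrane protein gene, passed the test, at -0.48 on the log2 scale (edgeR adjusted p = 0.0341), and it did not pass with any 1 library left out (adjusted p 0.0684 to 0.154). Per 1000 CPM of these markers, *Tlr3* was 11.4, 9.65 and 12.7 CPM in wild-type cortex and 23.4, 25.7 and 34.3 CPM in knockout cortex, a 2.47-fold ratio of means. *Cd14* was 6.18, 5.42 and 4.28 CPM and then 3.73, 3.47 and 2.99 CPM on this scale. In every knockout library *Tlr3* was higher and the marker sum lower. The *Tlr3* ratio therefore had to separate and adds no support to its difference. The *Cd14* groups also did not overlap on this scale. On this scale 5 of the 10 genes did not overlap, *Tlr3*, *Ticam1*, *Unc93b1* and *Myd88* above and *Cd14* below, where 35.1% of all tested genes did not overlap and 30.2% lay above.

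Markers of other cells that can carry these receptors were read as well. Of 12 markers of infiltrating myeloid cells and macrophages, 8 were tested, and their summed level was 18.9 to 24.6 CPM in wild-type cortex and 9.004 to 17.4 CPM in knockout cortex. *Ly6c2* carried this fall: without it, left out after its value was seen, the sums were 12.1 to 13.5 against 8.25 to 16.4 CPM and overlapped, and the median log2 fold change of the 8 genes was 0.20. Only *Ly6c2*, a marker of inflammatory monocytes with a close paralog, passed, at -3.31 on the log2 scale (edgeR adjusted p = 0.00152). Of 8 astrocyte markers, 5 lay wholly above in knockout cortex, where 12.4% of all tested genes did, and none lay wholly below. Their median log2 fold change was 0.26. Only the water channel gene *Aqp4* passed, and it was higher (0.55, edgeR adjusted p = 0.0374). It did not pass with 1 library left out unless this was knockout replicate 2. The summed level of the 8 markers was 3943 to 4294 against 4106 to 4571 CPM and overlapped. Of 8 lymphocyte markers, 2 had enough reads to be tested and 3 had no read in any library. No neuronal or endothelial marker passed, and the summed level of 8 neuronal markers, which the label of cortex calls for, was 7159 to 8148 against 7916 to 9514 CPM. The part of these cells in the differences of *Tlr3*, *Ticam1* and *Cd14* was not tested.

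**Figure D3:**
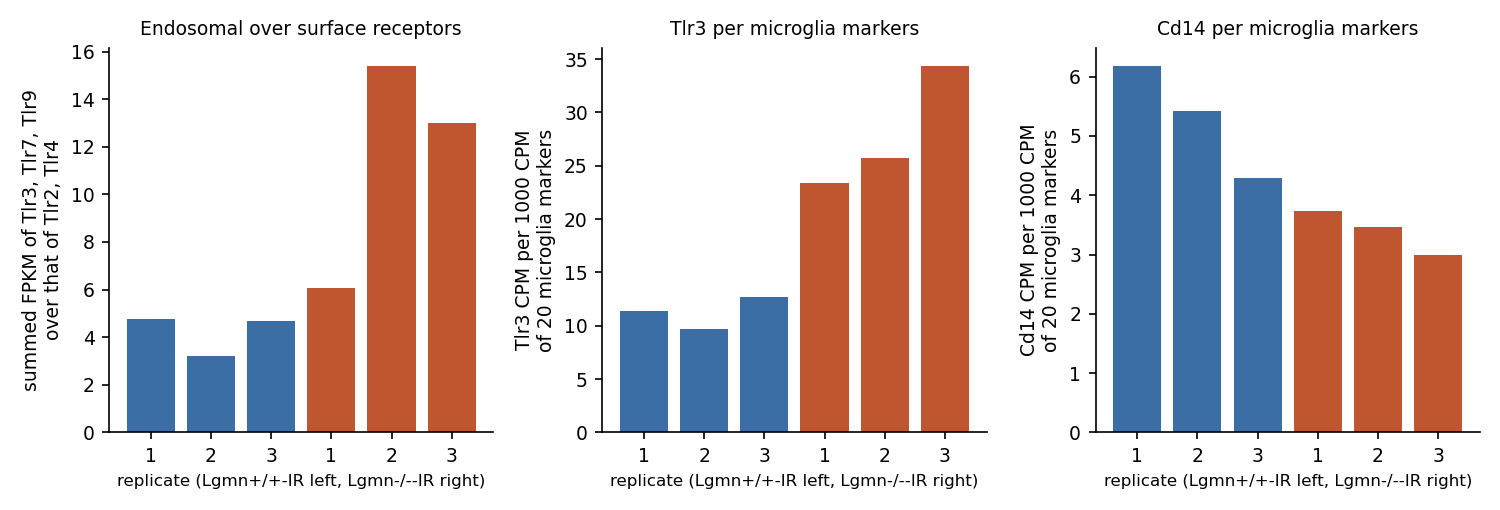
Ratios in each library (blue, wild-type replicates 1 to 3; orange, knockout replicates 1 to 3), on linear axes from 0: the summed FPKM of *Tlr3*, *Tlr7* and *Tlr9* over that of *Tlr2* and *Tlr4*, and *Tlr3* and *Cd14* CPM per 1000 CPM of 20 microglial markers. The first and the middle ratio are higher in every knockout library (6.06 to 15.4 and 23.4 to 34.3), and the last is lower (2.99 to 3.73). The first ratio largely follows *Tlr3*, which makes up most of its endosomal sum.

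The rest of the pathway was read from lists of 99 other genes, of which 86 were tested. Of these, 3 were called, all lower in knockout cortex: *Tlr1*, *Tirap* and the deleted gene *Lgmn* itself. This is 3.49% of those tested, near the 3.33% of all genes, and 1.68% of all genes were called lower. The median log2 fold change of the 86 genes was -0.01. No gene of the lists was called higher by edgeR with TMM. Scaled to library totals, edgeR called 4 genes, *Hsp90b1* among them and higher, and DESeq2 called 11.

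*Tlr1* (ENSMUSG00000044827, chr5:64924679-64933563), whose protein pairs with TLR2 to bind lipoproteins, had the largest difference of the listed genes. It had 169, 138 and 121 counts in wild-type cortex and 13, 4 and 15 in knockout cortex. Every knockout library was far below the others, at 0.240 ± 0.136 against 3.28 ± 0.652 CPM (SD, n = 3). This is 13.6-fold lower, with a log2 fold change of -3.76 ± 0.44 (SE, 95% interval -4.79 to -2.74, adjusted p = 0.00583, edgeR). On the log2(FPKM + 1) scale, which compresses low values, the difference was -0.88 (limma adjusted p = 0.00314).

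*Tlr6*, a close relative next to *Tlr1* that also pairs with TLR2, had 55, 74 and 73 counts in wild-type cortex and 55, 53 and 52 in knockout cortex (log2 fold change -0.37, edgeR adjusted p = 0.400). It shares 13.6% of the stretches of 50 bases in *Tlr1*, so reads could be split between them. In all, 15.4% of the *Tlr1* stretches occur in other genes, 307 in number. The part of shared reads in the *Tlr1* difference was not tested. The sum of *Tlr1* and *Tlr6* was 4.27 to 5.25 CPM in wild-type cortex and 1.23 to 1.53 CPM in knockout cortex. *Tlr1* made up 62.4% to 75.4% of this sum in wild-type cortex and 7.02% to 22.4% in knockout cortex.

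*Tirap* (ENSMUSG00000032041, chr9:35184551-35200291) encodes the adaptor that brings MyD88 to TLR2 and TLR4. It had 143, 121 and 99 counts in wild-type cortex and 33, 44 and 44 in knockout cortex, all of the latter lower. The mean was 2.78 ± 0.588 against 0.898 ± 0.137 CPM (SD, n = 3), 3.09-fold lower, with a log2 fold change of -1.63 ± 0.25 (SE, adjusted p = 0.0172, edgeR). It did not pass without wild-type replicate 1 (adjusted p = 0.0557) or 2 (0.0821), nor without knockout replicate 1 (0.0572), 2 (0.0503) or 3 (0.0584). On FPKM it was -0.44 on the log2(FPKM + 1) scale (limma adjusted p = 0.201), -0.94 with + 0.1 and -1.07 with + 0.01, and did not pass on any of them. *Tirap* overlaps *Srpr* and an antisense gene, and 9.70% of its stretches of 50 bases occur in other genes.

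**Figure D4:**
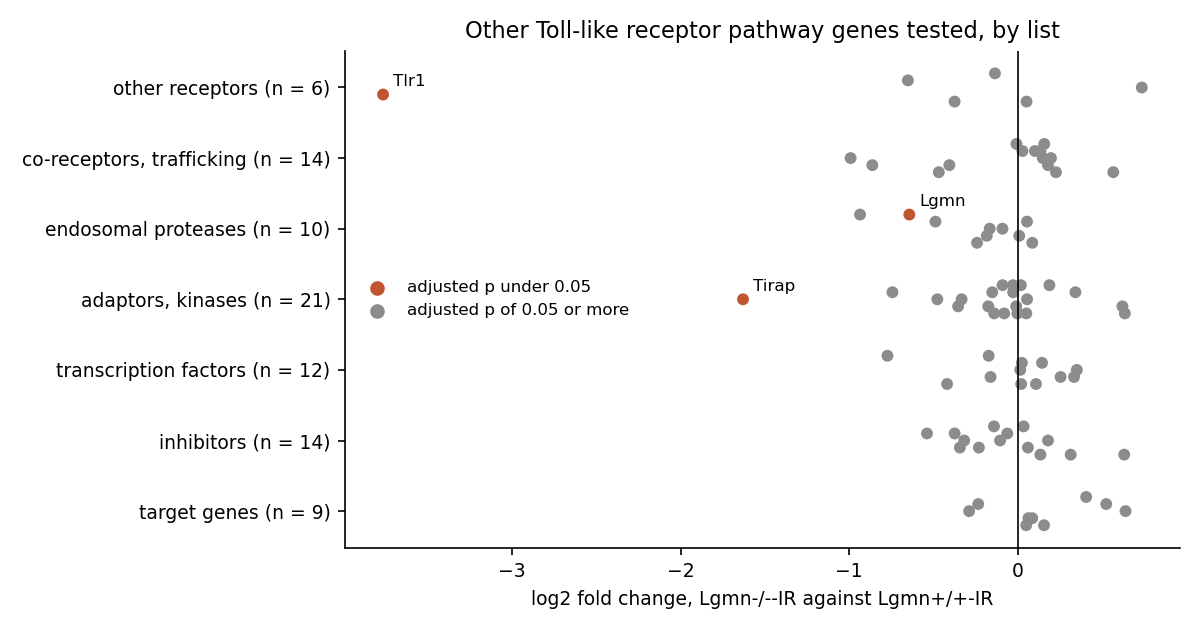
Log2 fold change of the 86 tested genes of the other pathway lists, knockout cortex against wild-type cortex, each point a gene and each row a list; orange marks an adjusted p under 0.05. *Tlr1* (-3.76), *Tirap* (-1.63) and *Lgmn* (-0.64) are called. The points not called run from -0.99 (*Slc15a3*) to 0.74 (*Tlr12*), on both sides of 0.

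By role, 1 of 6 tested genes of the other receptors was called lower (*Tlr1*). In CPM, *Tlr6* and *Tlr13* also lay wholly below in knockout cortex without passing. *Tlr12* lay wholly above and did not pass either (0.74 on the log2 scale, edgeR adjusted p = 0.300). In FPKM the *Tlr6* groups overlapped. None of 14 co-receptor and trafficking genes passed as scaled here (edgeR with TMM). The gene of this list nearest to passing was *Hsp90b1*, the endoplasmic reticulum chaperone that folds Toll-like receptors, at 196 ± 13.1 CPM in wild-type cortex and 291 ± 40.8 CPM in knockout cortex (SD, n = 3; edgeR adjusted p = 0.0532). *Hsp90b1* was called with DESeq2 (adjusted p = 0.00222) and with edgeR scaled to library totals (0.0457). Its libraries lay wholly above in knockout cortex. Those of *Slc15a3* (-0.99 on the log2 scale, edgeR adjusted p = 0.0710), *Lbp* (-0.86, 0.108) and *Rftn1* (-0.41, 0.248) lay wholly below in CPM. In FPKM the *Rftn1* groups overlapped. Of 10 endosomal proteases, which include the cathepsins that trim the receptors, only *Lgmn* was called. The libraries of 5 of the 10 lay wholly below in knockout cortex, where 13.3% of all tested genes did so. These were the targeted gene *Lgmn* itself, *Ctsk* (-0.94 on the log2 scale, edgeR adjusted p = 0.0861), *Ctsh* (-0.49, 0.0937), *Ctsl* (-0.24) and *Ctsz* (-0.09). The groups of *Ctsb* (0.086), *Ctss* (0.009), *Furin* (0.055), *Ctsd* (-0.18) and *Ctsf* (-0.17) overlapped. Of 21 adaptors and kinases, only *Tirap* was called. In CPM, *Ikbkg*, *Tab1* and *Map3k7* also lay wholly below, whereas *Sarm1* lay wholly above (0.62 on the log2 scale, edgeR adjusted p = 0.205). In FPKM the groups of *Ikbkg* and of *Sarm1* overlapped.

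By edgeR, no transcription factor (12 tested), inhibitor (14 tested) or target gene (9 of 20 tested) passed. Among transcription factors the nearest was *Irf7*, which drives type I interferon genes, at -0.77 on the log2 scale (edgeR adjusted p = 0.247). Among inhibitors it was *Otud7b*, a deubiquitinase, at -0.34 (adjusted p = 0.182). Among targets it was *Ptgs2*, the inducible cyclooxygenase gene, at 0.64 (12.8 against 19.9 CPM, adjusted p = 0.0906), and DESeq2 called it (adjusted p = 0.0121). *Ptgs2* and *Vcam1* (0.52, edgeR adjusted p = 0.0995) lay wholly above in knockout cortex, where 12.4% of all tested genes did. The summed level of the 20 targets, of which these genes are the most abundant, was 33.8 to 39.1 against 45.1 to 57.3 CPM, without overlap. This sum was not tested. *Il6*, *Il10* and *Ifnb1*, cytokine targets of these receptors, had no read in any library, where a count of 0 allows up to 0.0703 CPM.

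**Figure D5:**
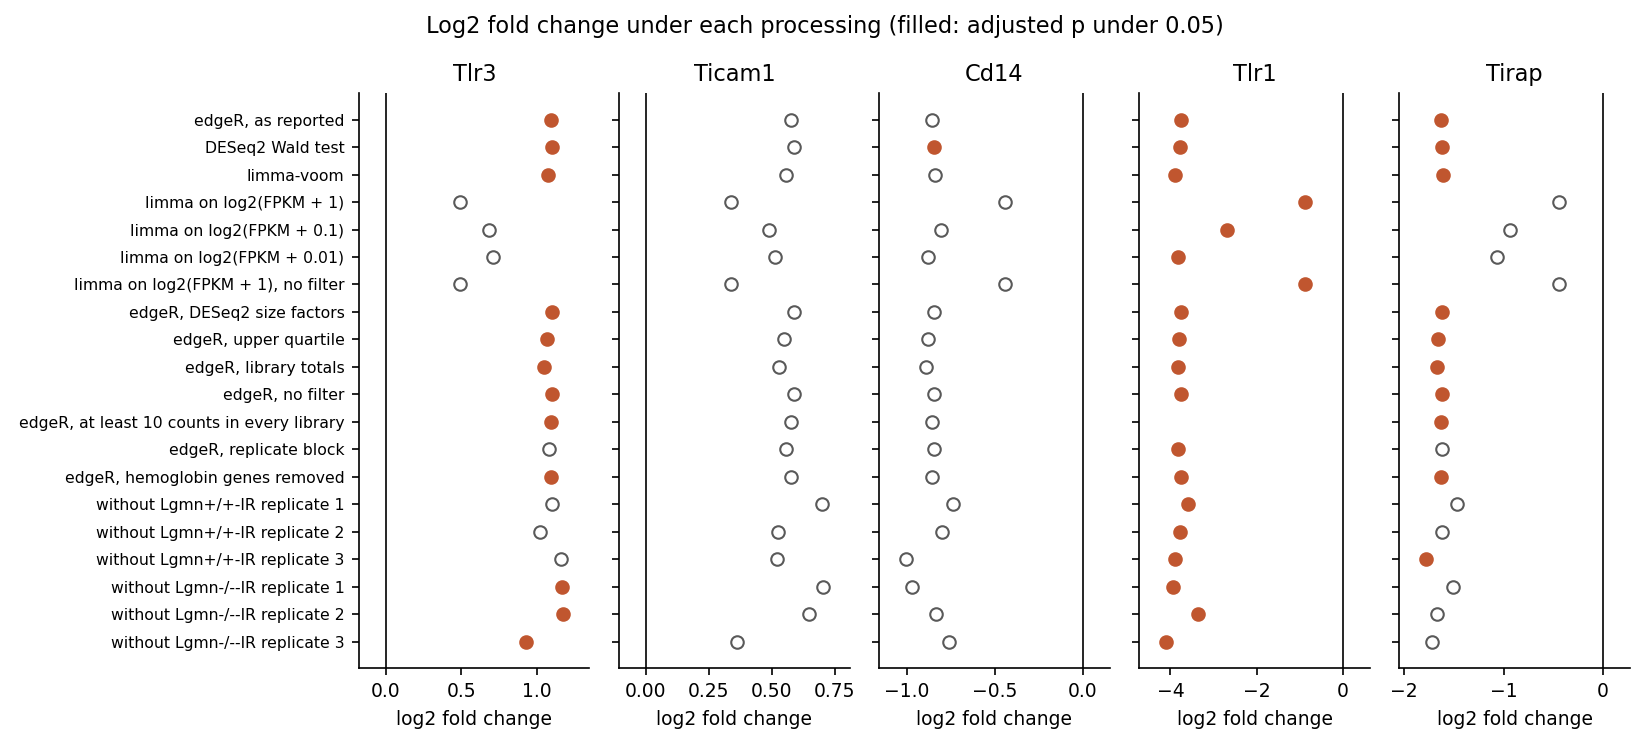
Log2 fold change of *Tlr3*, *Ticam1*, *Cd14*, *Tlr1* and *Tirap* under each way of processing (rows); filled points have an adjusted p under 0.05, and the vertical line marks no difference. All points keep their side of 0. *Tlr1* is filled in each row with a value, *Tlr3* in 11 of 19 alternatives, *Tirap* in 9, *Cd14* in 1 and *Ticam1* in 0.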

How the data were processed

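Cortical polyA RNA from 3 wild-type and 3 knockout samples, all irradiated, was analysed, grouped by the sample labels. The authors trimmed reads with Trimmomatic 0.36, aligned them with HISAT2 and deposited raw counts per gene, without normalization. The authors also deposited FPKM, computed with StringTie, for the same genes and libraries. The labels name GRCm38, and positions came from GENCODE M21, which holds 51633 of the 51826 gene IDs. The strand setting of the counting is not given in the sources used here.

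Genotype was tested on the counts with edgeR 4.0.16 under R 4.3.3 (TMM, low counts removed with filterByExpr, quasi-likelihood test of genotype as the only term, Benjamini-Hochberg adjustment over 18345 genes). A call is an adjusted p under 0.05. CPM are TMM-normalized. Other fits used DESeq2 1.42.0 and limma 3.58.1, the latter on voom values and on log2(FPKM + 1, 0.1 or 0.01) with FPKM over 0.1 in 3 libraries. Replicates differed beyond sampling noise and were kept apart. The fits were first tested on simulated counts with known changes. There edgeR recovered 43% of genes changed by 1 on the log2 scale and 84% of those changed by 2. Of the calls, 7.97% were false with edgeR and 22.2% with DESeq2. The floor (3 counts) covers counting error only, since PCR copies were not told apart by molecular identifiers.

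The members, the pathway lists and the marker lists were chosen with earlier results of these data known. Named genes are the 10 members, *Lgmn*, the called genes of each pathway list or else the gene with the smallest p, and up to 4 called genes of each marker list, given where they stand beside a result. *Tlr6*, *Tlr12*, *Tlr13*, the microglial markers other than *Laptm5* and the cathepsins were named after their values were seen. So were *Furin*, *Slc15a3*, *Lbp*, *Rftn1*, *Vcam1*, *Ikbkg*, *Tab1*, *Map3k7*, *Sarm1*, the cytokines without reads and the overlapping genes. Stretches of 50 bases were compared between GENCODE transcripts, and promoters came from RefSeq.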

Additional observations from a re-analysis of the deposited data

How the results depend on the processing

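Each result was recomputed under 19 alternatives. Over all genes, the 611 calls became 1423 with DESeq2, 404 without the filter on low counts, 406 with at least 10 counts in every library, 381 with limma on log2(FPKM + 1) without a filter and 150 with the replicate block, and 223 (without wild-type replicate 2) to 500 (without knockout replicate 2) with 1 replicate left out. Of the 10 genes, 1 was called as reported, 2 with DESeq2 (*Tlr3* and *Cd14*), 0 in the 4 limma fits on FPKM, 0 with the replicate block and 0 to 1 with 1 replicate left out (0 without each wild-type replicate). Of the other pathway genes, 3 were called as reported, 11 with DESeq2, 1 with limma on log2(FPKM + 1) without a filter, 1 with the replicate block and 1 to 2 with 1 replicate left out. The replicate numbers do not pair the samples (correlations of same-numbered deviations -0.296, -0.048 and -0.047); with the block, *Tlr3* had an adjusted p of 0.0618, *Tirap* 0.110 and *Lgmn* 0.113 (edgeR). *Tlr3* kept its direction in all 19 alternatives (0.49 to 1.17 on the log2 scale) and its call in 11. *Lgmn* kept its direction in all and its call in 12. The markers *Laptm5* and *Aqp4* kept their direction in all and their call in 11, with adjusted p up to 0.154 and 0.129 (edgeR) when 1 replicate was left out. *Tlr1* kept both in the 18 alternatives that gave a value, with adjusted p up to 0.0499, and had none with at least 10 counts in every library. *Tlr7* changed sign with limma on log2(FPKM + 1), with and without the filter (0.052 in each), + 0.1 (0.14) and + 0.01 (0.17), and ran from -0.22 to 0.056 with 1 replicate left out. *Myd88* changed sign with upper-quartile scaling (-0.0042) and library totals (-0.018), and ran from -0.034 to 0.11 with 1 replicate left out. *Irak4* ran from -0.29 to 0.20 with 1 replicate left out. The causes were not tested. Counts of 18 to 80 per library limit *Tlr2*, *Tlr4*, *Tlr7* and *Tlr9*.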

Other observations

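The genes whose log2 CPM followed the mean of the 10 genes most closely over the 6 libraries were *Fbxo7* (Pearson r = 0.979), *Irak3* (0.975), *Cops4* (0.974), *Ccdc115* (0.974) and *Bola3* (0.973), given as a description without a test. *Irak3*, which encodes an inhibitor of MyD88 signaling, had a log2 fold change of -0.37 (edgeR adjusted p = 0.672).

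Tested genes within 1 Mb of the 10 genes, *Tlr1* and *Tirap* were counted after the values were seen, beside the 3.33% of all genes that edgeR called. None was called near *Tlr3* (of 17), *Tlr7* (10), *Tlr4* (1), *Tlr2* (12), *Irak4* (6), *Tlr1* (24) or *Tirap* (13). Near *Ticam1* 3 of 59 were called, near *Unc93b1* 3 of 58, near *Myd88* 2 of 33, near *Tlr9* 1 of 31 and near *Cd14* 1 of 73. Those near *Ticam1* were *Trip10* and *Slc25a41* (higher) and *Chaf1a* (lower).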
